A study of Homo sapiens with 6 samples.

Results

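The deeply read, nearly constitutive exons of NCI-H1975 cells were examined in RNA-seq data from cells that received a SAM68 plasmid. They were taken from the table of skipped exon (SE) events, in which reads across the 2 junctions of an exon (inclusion) are set against reads of the junction that leaves it out (skipping). An event belonged to the group when its exon was 28 to 300 nt long, when its reads averaged 1000 or more per library, and when its percent spliced in (PSI) in the control libraries was at least 99.5%. PSI is the inclusion share of the reads, with the counts of both forms first scaled to their effective lengths. Of 55919 events, 52771 had an exon of this length, 2714 of these had the reads, and 1881 also had the PSI. These 1881 events held 1681 distinct exons of 756 genes, out of 43648 distinct exons in the whole table. Where an exon had several events, the one with the most reads was used.

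NCI-H1975 is an established human lung adenocarcinoma cell line. The cells were transfected with 2 µg per well of PCDNA3.1 that carries SAM68 (the SAM68 group) or of PCDNA3.1 alone (the control group), and RNA was taken after 48 h, in 3 libraries per group. All groups were thus transfected cells of this line, transgene and endogenous mRNA were counted together, and no untransfected cells were measured. The deposited lists hold 3 values per group without replicate numbers, so a library is called here by its group and its position in the list. The study states that the replicates were biological.

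A constitutive exon is joined into nearly every mature mRNA of its gene. Its 3′ splice site ends with AG and its 5′ splice site begins with GT, and U2 and U1 small nuclear ribonucleoproteins recognise the sites across the exon. Skipping of such an exon is rare, and when the exon length is not a multiple of 3 the reading frame is shifted, which often exposes the mRNA to nonsense-mediated decay. SAM68, encoded by KHDRBS1, is a STAR-family RNA-binding protein that binds short UAAA and UUAA elements, and it regulates the choice of alternative exons.

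The sequences of 16 exons are shown, each with the last 20 nt of the intron before it and the first 6 nt of the intron after it, from GRCh38 and read 5′ to 3′ on the strand of the gene. The capitals mark the AG of the 3′ splice site and the GT of the 5′ splice site. The EEF1A1 and RPS19 exons and exon 2 of RPS16 had the most reads, those of PKM, RSL1D1, ITGB1, PRKCSH and MT1X had the largest negative differences in PSI, those of EMP3, RPL4, KDELR2, GAS5 and TBCA had the largest positive ones, and those of ACTN4, RPS15A and exon 3 of RPS16 are shown because they, too, were among the events past the adjusted p for inclusion.
EEF1A1 exon 3 (chr6:73519331-73519536, - strand): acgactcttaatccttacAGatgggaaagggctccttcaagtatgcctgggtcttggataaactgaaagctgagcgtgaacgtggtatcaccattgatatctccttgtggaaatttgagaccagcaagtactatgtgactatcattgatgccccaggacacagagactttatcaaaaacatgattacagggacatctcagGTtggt
RPS19 exon 4 (chr19:41869011-41869220, + strand): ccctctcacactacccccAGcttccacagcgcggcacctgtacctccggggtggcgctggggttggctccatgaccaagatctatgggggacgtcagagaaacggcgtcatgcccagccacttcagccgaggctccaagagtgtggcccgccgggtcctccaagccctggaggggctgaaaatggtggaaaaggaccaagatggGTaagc
RPS16 exon 2 (chr19:39435601-39435728, - strand): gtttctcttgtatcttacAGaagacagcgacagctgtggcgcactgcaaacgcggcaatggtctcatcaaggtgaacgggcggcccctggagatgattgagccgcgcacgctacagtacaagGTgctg
PKM exon 9 (chr15:72203016-72203208, - strand): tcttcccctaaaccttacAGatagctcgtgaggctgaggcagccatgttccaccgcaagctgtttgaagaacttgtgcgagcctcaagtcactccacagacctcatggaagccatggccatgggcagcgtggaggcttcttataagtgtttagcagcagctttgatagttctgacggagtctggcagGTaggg
RSL1D1 exon 2 (chr16:11850273-11850438, - strand): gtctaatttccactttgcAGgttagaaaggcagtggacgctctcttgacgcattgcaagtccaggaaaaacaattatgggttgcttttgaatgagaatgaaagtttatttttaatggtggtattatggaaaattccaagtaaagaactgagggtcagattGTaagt
ITGB1 exon 15 (chr10:32908362-32908554, - strand): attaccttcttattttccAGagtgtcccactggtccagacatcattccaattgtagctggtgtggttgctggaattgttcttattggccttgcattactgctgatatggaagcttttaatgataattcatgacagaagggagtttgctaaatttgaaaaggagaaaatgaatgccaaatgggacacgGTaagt
PRKCSH exon 10 (chr19:11447054-11447166, + strand): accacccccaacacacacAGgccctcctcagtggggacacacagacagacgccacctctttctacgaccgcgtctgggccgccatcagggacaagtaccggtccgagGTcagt
MT1X exon 2 (chr16:56683145-56683236, + strand): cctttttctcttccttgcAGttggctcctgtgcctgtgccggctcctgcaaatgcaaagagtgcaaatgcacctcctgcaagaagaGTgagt
EMP3 exon 3 (chr19:48327501-48327629, + strand): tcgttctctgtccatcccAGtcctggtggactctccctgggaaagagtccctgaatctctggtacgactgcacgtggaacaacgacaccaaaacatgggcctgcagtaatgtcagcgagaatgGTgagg
RPL4 exon 5 (chr15:66501782-66501932, - strand): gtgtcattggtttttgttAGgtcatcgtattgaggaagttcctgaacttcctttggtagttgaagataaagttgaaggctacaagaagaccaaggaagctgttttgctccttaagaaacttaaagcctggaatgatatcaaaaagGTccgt
KDELR2 exon 2 (chr7:6474178-6474304, - strand): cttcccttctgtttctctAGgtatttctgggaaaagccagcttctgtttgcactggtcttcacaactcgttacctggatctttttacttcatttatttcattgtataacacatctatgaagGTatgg
GAS5 exon 8 (chr1:173865223-173865302, - strand): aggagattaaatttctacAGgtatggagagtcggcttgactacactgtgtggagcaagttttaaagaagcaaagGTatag
TBCA exon 3 (chr5:77693260-77693372, - strand): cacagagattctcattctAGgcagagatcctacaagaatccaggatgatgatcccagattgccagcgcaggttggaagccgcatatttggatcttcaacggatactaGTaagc
ACTN4 exon 11 (chr19:38717907-38718080, + strand): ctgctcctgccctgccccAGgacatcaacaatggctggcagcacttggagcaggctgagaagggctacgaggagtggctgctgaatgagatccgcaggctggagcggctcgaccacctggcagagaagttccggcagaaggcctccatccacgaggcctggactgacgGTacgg
RPS16 exon 3 (chr19:39433659-39433781, - strand): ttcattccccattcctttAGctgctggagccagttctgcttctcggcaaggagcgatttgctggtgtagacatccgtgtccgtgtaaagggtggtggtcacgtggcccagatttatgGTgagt
RPS15A exon 3 (chr16:18788057-18788162, - strand): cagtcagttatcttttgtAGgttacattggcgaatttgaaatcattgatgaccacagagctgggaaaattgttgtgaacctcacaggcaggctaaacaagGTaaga

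All 16 exons have the AG and the GT. The intron after exon 9 of PKM begins with GTAGGG, which holds an element bound by hnRNP A1 (UAGGG). TAAA occurred in 7 of the 16 exons and TTAA in 4 of these 7, searched on the strand of the gene, where both can overlap. Exon 9 of PKM and the exon of ACTN4 held neither.

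KHDRBS1, the gene on the plasmid, had 314, 331 and 318 rpm (reads per 1000000 of the reads of 1 event per gene) in control and 1241, 1270 and 1287 rpm in SAM68. These are bulk libraries, in which fewer cells of a type and less RNA per cell cannot be told apart. The SE table held 16951876 to 19737729 reads per library, and the 1881 events took 41.6% to 42.7% of them. Each pair of libraries of a group differed by more than sampling noise in the reads of the exons (chi-square of 4.84 to 11.3 for each degree of freedom, PKM exon 9 and KHDRBS1 left out). For pairs across the groups this value was 14.8 to 28.8. All 6 libraries were kept. Of 8 epithelial marker genes, KRT18 (475 to 535 rpm) and KRT8 (231 to 524 rpm) were well read, KRT7 and MUC1 had at most 4.52 rpm, and the others had no event in the tables. Of the lung, immune, fibroblast and endothelial marker genes, CD68, which epithelial cells also express, had 92.6 to 105 rpm, NAPSA and DCN had at most 1.44 rpm and the others had no event.

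The exons were then examined for whether the whole SE table bears out the name nearly constitutive. An event counts only its own skipping junction, while other events of the table can list further junctions that span the same exon. Of the 1681 exons, 662 were spanned by more than 1 listed skipping junction. When the reads of all of them were summed, the median PSI in the control libraries was 99.9%, but 185 exons lay under 99.5%, 32 under 95% and 14 under 90%. The lowest was exon 9 of PKM (52.6%), followed by an exon of EEF1D (74.0%), one of SNHG6 (74.9%), one of ISYNA1 (77.6%) and one of TPM2 (79.0%). In other events of at least 10 mean reads, 142 of the exons had a control PSI under 99.5%, and 12 had one under 50%. For these exons the name holds for the listed event and not for every junction of the gene. The sums cover junctions that the table lists as skipping junctions, and an exon that is chosen in place of a neighbour can escape them.

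**Figure D1:**
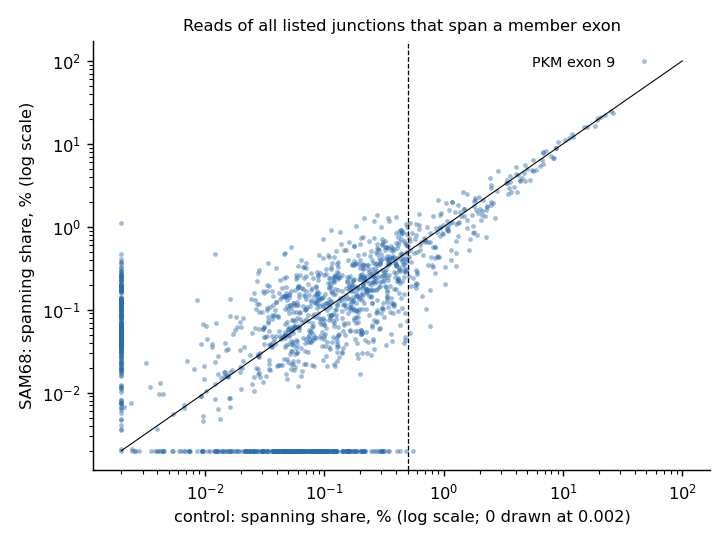
Share of reads from all listed junctions that span a member exon (length-normalised, 1 point per exon, both axes in % on log scales, 0 drawn at 0.002) in the pooled control (x) and SAM68 (y) libraries. The dashed line marks 0.5%, and 185 exons lie to the right of it, most of them near the diagonal, while exon 9 of PKM lies at 47.4% in control and 99.4% in SAM68.

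Skipping reads were rare and scattered. The median exon had 4 skipping reads over the 6 libraries (quartiles 2 and 9, highest 252), at a median of 1841 mean reads per library (quartiles 1308 and 3293, range 1000.5 to 135598). No row of the SE table lacked skipping reads in all 6 libraries, so an exon that was never skipped is not listed and could not be a member. Of the 1681 exons, 417 had no skipping read in the control libraries and 477 had none in the SAM68 libraries. Skipping reads came from 1 library in 752 exons and from all 6 libraries in 100 exons. In 398 exons there were 10 or more skipping reads, and in 4 of these they all came from a single library, counted in the event with the most reads of each exon.

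In each library, 612 to 687 exons (36.4% to 40.9%) had a skipping read. Summed over the exons, 2284, 2685 and 2439 skipping reads stood against 6701713, 7244404 and 6933087 inclusion reads in control, and 2788, 2445 and 2444 against 7430502, 6395008 and 6347538 in SAM68. The length-normalised skipping share was 0.0620%, 0.0675% and 0.0640% in control and 0.0683%, 0.0696% and 0.0701% in SAM68, or 0.0645% ± 0.00274 (SD, n = 3) and 0.0693% ± 0.000928 (SD, n = 3). The means differed by 0.00485 points of share, and the groups lay close to each other without overlap. Since a low skipping share in the control libraries chose the exons, this difference is a description and was not tested. The other deeply read exons of the same lengths had a skipping share of 61.3% to 62.1% in every library.

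**Figure D2:**
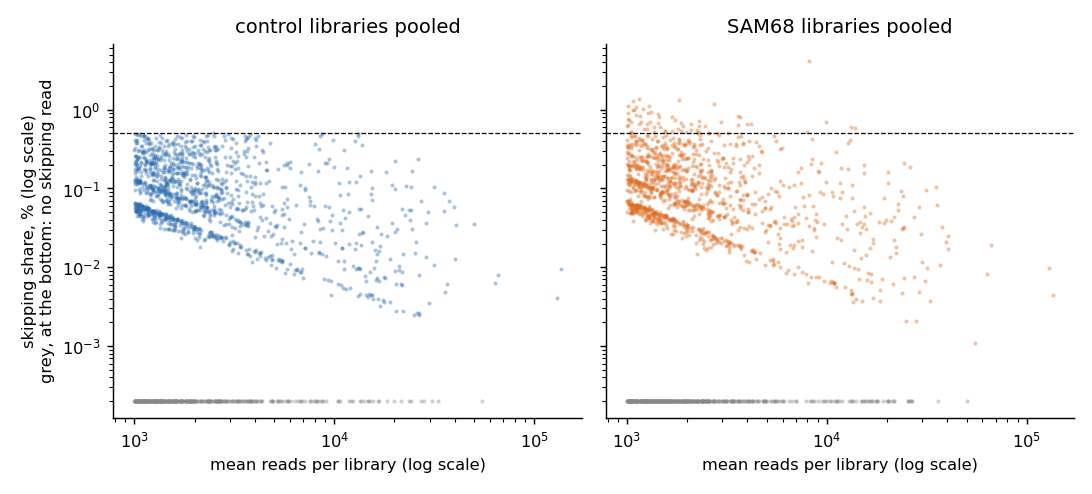
Skipping share of each of the 1681 exons (y, % on a log scale) against its mean reads per library (x, log scale), with the control libraries pooled on the left and the SAM68 libraries on the right. The dashed line marks 0.5%, the grey points at the bottom have no skipping read, and 67 exons lie above the line in the SAM68 libraries.

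The exons were compared in sequence and position with 721 other deeply read exons (at least 1000 mean reads, control PSI under 99.5%) and with 5656 alternative cassette exons (at least 10 mean reads, control PSI of 10% to 90%), each without the member exons. These are counts and medians without a test. The nearly constitutive exons had a median length of 120 nt (quartiles 89 and 156), against 113 nt and 111 nt. Only 44 of them were at most 50 nt long, against 56 of the 721 and 448 of the 5656. Of the 1681 exons, 709 (42.2%, 95% Wilson interval 39.8% to 44.6%, counting error only) had a length divisible by 3, against 42.9% and 44.4%. The interval of the 721 exons was 39.3% to 46.5% and that of the 5656 exons 43.1% to 45.7%, and all 3 intervals overlapped.

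In GENCODE 44, 1514 of the exons (90.1%) were wholly coding in at least 1 transcript, against 63.2% of the other deeply read and 55.9% of the alternative exons. Exons wholly in a UTR were 11 (0.654%), against 10.8% and 17.1%, and 37 were noncoding, among them exons of the snoRNA host gene GAS5. The skipping junction of 345 exons (20.5%) was an annotated intron, against 78.6% and 81.4%. Both inclusion junctions were annotated for 1582 exons (94.1%).

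The splice sites were scored with log2 matrices from 165386 internal exons of canonical protein-coding transcripts. The 5′ splice sites had a median score of 8.19 (quartiles 6.34 and 9.67), against 7.42 in the other deeply read and 7.74 in the alternative exons. The 3′ splice sites differed less, with medians of 9.01, 8.93 and 8.83. The quartiles of the 3 sets overlapped widely in both scores. Of the 1681 exons, 1678 followed AG, 1665 were followed by GT and 14 by GC, and 2 by neither. The introns were short, with a median of 1047 nt before and 1014 nt after the exon, against 1429 nt and 1188 nt in the other deeply read and 2562 nt and 2585 nt in the alternative exons. Both introns were under 500 nt for 301 exons (17.9%), against 14.0% and 6.56%. The GC content was alike, with medians of 50.8%, 51.3% and 49.6%.

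Motifs were counted on the strand of the gene in the exon and in the 100 nt on each side. TAAA occurred in 26.7% of the nearly constitutive exons, 27.5% of the other deeply read and 27.7% of the alternative exons, and TTAA in 22.8%, 23.3% and 24.3%. In the 100 nt before the exon TAAA occurred beside 34.5%, 36.6% and 40.2%, and in the 100 nt after it beside 36.0%, 37.0% and 41.3%. TAGGG, an element that hnRNP A1 binds, occurred in 2.68%, 4.02% and 3.57% of the exons, in the 100 nt before 6.66%, 5.69% and 5.36% of them, and in the 100 nt after 9.34%, 9.57% and 7.78%. TTAA occurred in the 100 nt before 41.6%, 41.2% and 43.0% and in the 100 nt after 37.18%, 38.003% and 40.77%. Such matches do not show binding.

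Within the group, the skipping share varied with the flanking introns, the annotation of the junction and the depth. Among the 422 exons whose shorter intron was at most 175 nt it was 0.0514% ± 0.0044 in the control and 0.0485% ± 0.0022 in the SAM68 libraries (SD, n = 3). Among the 420 exons with introns of at least 1515 nt it was 0.112% ± 0.00808 and 0.128% ± 0.00529 (SD, n = 3). Exons whose skipping junction was annotated had 0.107% ± 0.0028 and 0.120% ± 0.00318 (SD, n = 3), and the others 0.0542% ± 0.00276 and 0.0572% ± 0.000346 (SD, n = 3). In both groups of libraries the share was thus about 2 times as high for the annotated junctions. Exons that keep the frame had 0.0680% ± 0.00434 and 0.0723% ± 0.00215, and frame-shifting exons 0.0619% ± 0.00183 and 0.0672% ± 0.00278 (SD, n = 3). Across 4 classes of the 5′ splice site score the control share ran from 0.0605% to 0.0703% without an order. The 420 deepest exons (at least 3303 mean reads) had 0.0476% ± 0.00416 in control and 0.0486% ± 0.00169 in SAM68 (SD, n = 3), with overlap. The 421 shallowest (at most 1308 mean reads) had 0.107% ± 0.00405 in control and 0.139% ± 0.0152 in SAM68 (SD, n = 3), without overlap. Of the 2 classes between them, the shallower one (0.101% and 0.118%) did not overlap either and the deeper one (0.0975% and 0.101%) did. No listed event lacks skipping reads, which sets a minimum share that is higher at lower depth. From the shallowest to the deepest class, the median exon had 3, 3, 4 and 5 skipping reads over all libraries. How far this minimum sets the order of the depth classes was not tested. A low skipping share in control chose the exons, so nothing is read from differences between the groups in these classes. They were not tested.

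The 3 exons with the most reads belong to the translation machinery. The deepest was exon 3 of EEF1A1, the elongation factor that brings aminoacyl-tRNA to the ribosome, with 132584, 144831 and 138482 inclusion reads and 3, 12 and 5 skipping reads in control, and with 145158, 126195 and 126312 inclusion reads and 3, 2 and 4 skipping reads in SAM68. Exon 2 of RPS16, a protein of the small ribosomal subunit, had 52185 to 57992 inclusion reads per library and a single skipping read, in SAM68 library 1. Exon 4 of RPS19, also of the small subunit, had 1, 0 and 5 skipping reads in control and 2, 1 and 5 in SAM68. The groups overlapped in all 3.

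The next were exons of RPL7A, RPL13, RPS18, PPIA, RPL13A, RPS20 and RPS12. All but PPIA, the prolyl isomerase cyclophilin A, encode ribosomal proteins. Their mean reads lay between 31603 and 40455, and their pooled PSI was at least 99.9% in either group. RPS18 had 14, 18 and 10 skipping reads in control and 7, 7 and 1 in SAM68, which do not overlap. EEF1A1, PPIA and the ribosomal protein genes have processed copies elsewhere in the genome, so reads may be shared between near-identical sequences and these counts are uncertain to that extent.

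The study asked how SAM68 changes splicing, and inclusion of these exons was therefore set side by side in the 2 groups. Their median PSI was 99.95% in both. The PSI of 848 exons was lower and that of 833 higher in the SAM68 libraries, with a median difference of -0.0009 points (5% and 95% quantiles -0.244 and 0.181). For 1659 exons (98.7%) the difference was under 0.5 points. It was -0.5 points or lower in 22 exons, and could hardly reach 0.5 points in the other direction, because the rule leaves at most that much room to rise. In the SAM68 libraries 1614 exons (96.0%) were again at 99.5% or more, 9 were under 99% and 1 was under 98%. The rule applied to the SAM68 libraries in place of control chose 1900 events, and 1810 events were chosen by both, which is 96.2% of the first and 95.3% of the second list.

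All 1881 events entered a quasi-binomial test of inclusion and skipping counts that was fitted on all SE events that averaged 10 or more reads per library. The spread between libraries was moderated with limma and p-values were adjusted by Benjamini-Hochberg. At an adjusted p under 0.05, 6 of the 1881 events passed (0.319%), 2 lower and 4 higher in SAM68, where 56 of 47450 tested events passed in all (0.118%). With a difference of at least 10 points in addition, 0 of the events passed, against 35 of all events (0.0738%), and the unadjusted p was under 0.05 in 97 (5.16%, against 5.57% of all tested events). The control side of this contrast chose the exons, so nothing is read from these counts, and the values of single exons that follow are a description without a test.

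Exon 11 of ACTN4, which encodes the actin crosslinker alpha-actinin-4, had 0, 1 and 0 skipping reads in control and 13, 8 and 17 in SAM68. Its inclusion reads were 5428, 5812 and 5289 in control and 5899, 5010 and 5213 in SAM68. All 3 SAM68 libraries lay under all control libraries in PSI, which was 99.99% ± 0.0199 (SD, n = 3) in control and 99.53% ± 0.167 (SD, n = 3) in SAM68, a difference of -0.457 points. In SAM68, 38 skipping reads make 0.235% of 16160 reads (95% Wilson interval 0.171% to 0.323%). This share, and the upper limits given below for RPL4 and TBCA, are of raw reads without the length scaling of PSI. The junction that skips this exon is not an annotated intron.

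The other 4 events that passed together with those of PKM and ACTN4 had a PSI of 100% in every SAM68 library. Exon 5 of RPL4, a large-subunit protein, had 65 skipping reads in control library 2 and none in any other library, and 0 of 26042 reads in SAM68 allows a share of up to 0.0115%. Exon 3 of RPS16 had 31 skipping reads, also all in control library 2, and an event of exon 3 of RPS15A, another small-subunit protein, had 31, all in control library 3. This RPS15A event (5742 mean reads) is not the one with the most reads of its exon (12757 mean reads), which had a PSI of 99.60% in control and 99.62% in SAM68. Their differences were 0.476, 0.0352 and 0.283 points. In these 3 events, 2 of the 3 control libraries equalled the SAM68 libraries at 100%, so the groups were not separated, and without the library that holds the reads the difference was 0. Their own dispersion was 63.2, 30.5 and 30.5, while the moderated test gave every event the shared value of 2.296.

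Exon 3 of TBCA, a chaperone of tubulin folding, had 7, 3 and 20 skipping reads in control and 0 in each SAM68 library (0 of 10187 reads, up to 0.0294%). Its PSI was 99.56% ± 0.401 (SD, n = 3) in control, and the groups did not overlap. The difference was 0.438 points, and 0.212 points without control library 3.

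**Figure D3:**
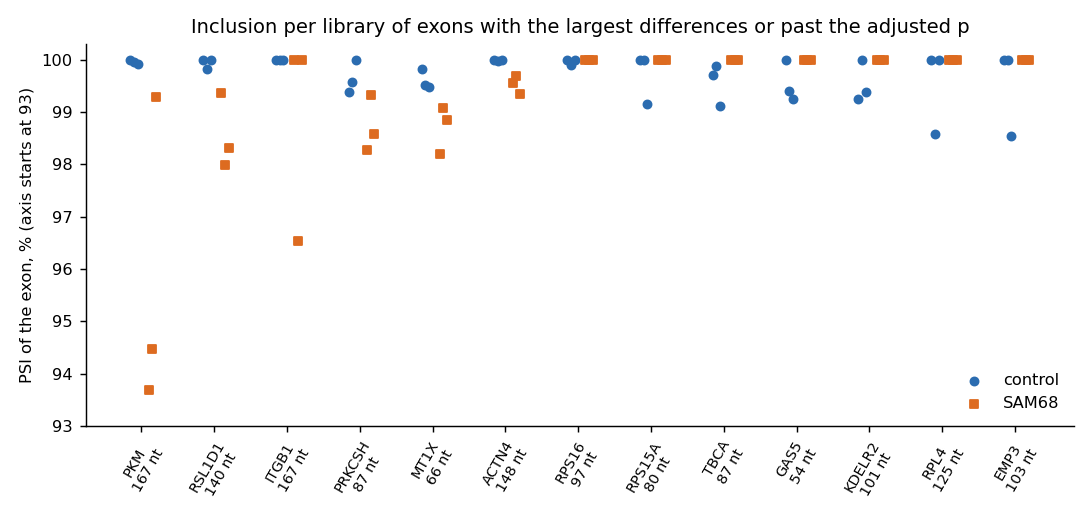
PSI of the exons with the largest differences in either direction or past the adjusted p, ordered by their difference, in each control (circles) and SAM68 (squares) library. The axis is PSI in % and starts at 93. The SAM68 libraries spread from 93.7% to 99.3% in exon 9 of PKM, while in ITGB1, RPL4, EMP3 and the second event of RPS15A a single library stands apart.

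Besides exon 9 of PKM, the largest negative differences were in RSL1D1, ITGB1, PRKCSH and MT1X. Exon 2 of RSL1D1, a nucleolar protein with a ribosomal L1 domain, had 0, 1 and 0 skipping reads in control and 4, 10 and 9 in SAM68, without overlap. Its PSI was 99.94% ± 0.101 (SD, n = 3) and 98.56% ± 0.720 (SD, n = 3), a difference of -1.39 points. Exon 15 of ITGB1, the integrin beta-1 chain, had skipping reads in SAM68 library 2 alone, 21 of them against 1171 inclusion reads, and without it the difference was 0.

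The 66 nt exon of MT1X, a metallothionein that binds metal ions, had 2, 6 and 6 skipping reads in control and 25, 11 and 14 in SAM68. Its PSI was 99.61% ± 0.190 (SD, n = 3) and 98.71% ± 0.457 (SD, n = 3), without overlap. Exon 10 of PRKCSH, the beta subunit of glucosidase II, had 4, 3 and 0 skipping reads in control and 12, 4 and 8 in SAM68, where PSI was 99.65% ± 0.314 and 98.73% ± 0.548 (SD, n = 3). In this exon SAM68 library 2 (99.33%) lay just under the lowest control library (99.39%).

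EMP3, KDELR2 and GAS5 were among the 5 largest differences in the other direction. EMP3, a membrane protein, had 14 skipping reads in control library 3 and none elsewhere. Exon 2 of KDELR2, the receptor that returns proteins to the endoplasmic reticulum, had 7, 0 and 6 in control and none in SAM68, and exon 8 of GAS5 had 0, 5 and 6 and none. In each of these 3 events at least 1 control library was at 100%, as all SAM68 libraries were. With all listed spanning junctions, PSI was 96.4% in control and 96.5% in SAM68 for EMP3, 99.55% and 99.90% for KDELR2, and 96.69% and 96.65% for GAS5, so the difference of EMP3 and GAS5 belongs to their own junction.

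PKM holds 3 of the exons. The gene encodes the glycolytic pyruvate kinase, and its mRNA carries either exon 9 (PKM1) or exon 10 (PKM2), which are mutually exclusive. Both were members, exon 9 at chr15:72203022-72203188 and exon 10 at chr15:72202454-72202620, because their events share a skipping junction, from the exon that begins at 72206728 to the one that ends at 72200655, that leaves both out. Reads of this junction numbered 0, 4 and 6 in control and 9, 7 and 1 in SAM68, so mRNA without either exon was rare in both groups.

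Inclusion reads of exon 9 were 15816, 16500 and 15846 in control and 267, 239 and 278 in SAM68, 61.4 times as many in control over all libraries. Those of exon 10 went the other way, from 38024 over the control libraries to 106990 over the SAM68 libraries. The own event of exon 9 had 48172 reads over the control libraries and 801 over the SAM68 libraries. Exon 9 thus met the minimum of mean reads through the control libraries, and the fall in its reads was not tested. The PSI of exon 9 in its own event was 100%, 99.95% and 99.92% in control and 93.7%, 94.5% and 99.3% in SAM68, a difference of -4.15 points. With all listed spanning junctions, the PSI of exon 9 went from 52.6% to 0.612%. Exon 10 stayed at 99.95% and 99.97% in its own event. The third exon, exon 3 at chr15:72217409-72217500, had 21376 to 30808 inclusion reads per library and 2 skipping reads in all.

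The exons were grouped by the function of their genes in 13 lists, which together held 262 of the 756 genes and 668 exons. Cytosolic ribosomal proteins gave 162 exons of 68 genes, which is 85.0% of the 80 genes of this list with an SE event of at least 10 mean reads, and they took 2479480 reads per library. Their skipping share was 0.0487% ± 0.00602 in control and 0.0461% ± 0.00148 in SAM68 (SD, n = 3). Translation elongation and initiation factors gave 79 exons of 25 genes, chaperones 84 of 24, oxidative phosphorylation subunits 68 of 38, and hnRNP and SR splicing proteins 59 of 21. In the order of the lists just named, the control shares were 0.0450%, 0.0530%, 0.0829% and 0.0424%, and the SAM68 shares 0.0508%, 0.0539%, 0.0864% and 0.0366%, with overlapping libraries in each.

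In 2 of the 13 lists the libraries of the groups did not overlap. With 3 libraries per group, full separation in either direction has a probability of 0.1 for a list whose groups do not differ. Aminoacyl-tRNA synthetases, the enzymes that charge tRNAs, had 24 exons of 12 genes, with a skipping share of 0.212%, 0.124% and 0.119% in control and 0.234%, 0.291% and 0.258% in SAM68. The 58 exons of 16 actin cytoskeleton and adhesion genes, ACTN4 and ITGB1 among them, had 0.0458%, 0.0454% and 0.0488% in control and 0.0617%, 0.0997% and 0.0606% in SAM68. These shares take in the ACTN4 and ITGB1 exons described above (1 and 0 skipping reads in control, 38 and 21 in SAM68). The shares without these exons were not computed. Proteasome subunits (49 exons of 20 genes) had 0.108% ± 0.0130 in control and 0.149% ± 0.0282 in SAM68 (SD, n = 3), with overlap. In the other 5 lists (glycolysis, core spliceosome, tubulins and keratins, annexins and S100 proteins, redox enzymes) the control means lay between 0.0383% and 0.0737% and the SAM68 means between 0.0181% and 0.0990%, all with overlap. Over all 1681 exons the groups did not overlap either, as given above. A low control share chose the exons, and none of these shares was tested.

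Within the lists, the exon with the most reads was in PSMB1, a proteasome subunit, for the proteasome. It had 18, 26 and 21 skipping reads in control and 48, 42 and 26 in SAM68, and the PSI was 99.59% and 99.31% from the pooled reads. Exon 7 of KARS, the lysyl-tRNA synthetase, had 2, 5 and 1 skipping reads in control and 5, 4 and 10 in SAM68, which overlap. Exon 2 of ACTB, cytoplasmic actin, had 1 skipping read in all against 23543 to 28977 inclusion reads per library. The deepest exons of the antioxidant enzyme PRDX1, the chaperone HSP90AB1, the spliceosomal protein SNRPB and the annexin ANXA2 had at most 6 skipping reads in any library. That of VIM, the intermediate filament vimentin, had 0, 0 and 14 in control and 8, 0 and 6 in SAM68, and that of COX6B1, a subunit of cytochrome c oxidase, had 5, 13 and 17 in control and 16, 7 and 9 in SAM68. Exon 3 of HNRNPA1, the splicing repressor hnRNP A1, had 2, 1 and 2 in control and 2, 3 and 3 in SAM68, against 13962 to 16681 inclusion reads.

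Levels of the genes were read from the junction reads of 1 event per gene, the one with the most reads, which the rule used only as a mean over all libraries. A level here is in rpm and a change is on the log2(rpm + 0.5) scale. Of the 756 genes, 1 was called higher (adjusted p under 0.05 and at least 2-fold, limma) where 1 of 10119 genes was called in all (0.00988%), and 0 were called lower, against 4 of all genes (0.0395%). The gene called higher was KHDRBS1 itself. Every SAM68 library was far above every control library, which is 1.98 on the log2 scale (standard error 0.0475, adjusted p = 8.29e-22, limma). Its member exon, exon 5, had 0, 5 and 0 skipping reads in control and 0, 1 and 7 in SAM68, while its inclusion reads went from 1805, 2059 and 1889 to 7798, 6864 and 6949, plasmid transcripts included.

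Without the 2-fold limit, 7 of the genes were higher, against 12 of all genes (0.119%), and 11 were lower, against 32 of all genes (0.316%). The 756 genes were read more deeply, with a median of 345 rpm against 25.5 rpm over all tested genes and a median standard error of 0.0582 against 0.157. Of 174 other genes with at least the 171 rpm of the lowest member gene, 5 passed (2.87%), against 18 of the 756 (2.38%). On the median of ratios scale, 8 of the genes were higher and 3 lower, so the excess of lower genes was lost, and with the reads summed over all events of a gene 3 were higher and 1 lower. With 1 library left out, 2 were higher and 1 lower without control library 2, and 18 were higher and 28 lower without SAM68 library 2. All but KHDRBS1, PKM and HSP90B1 missed the threshold without at least 1 of the libraries.

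**Figure D4:**
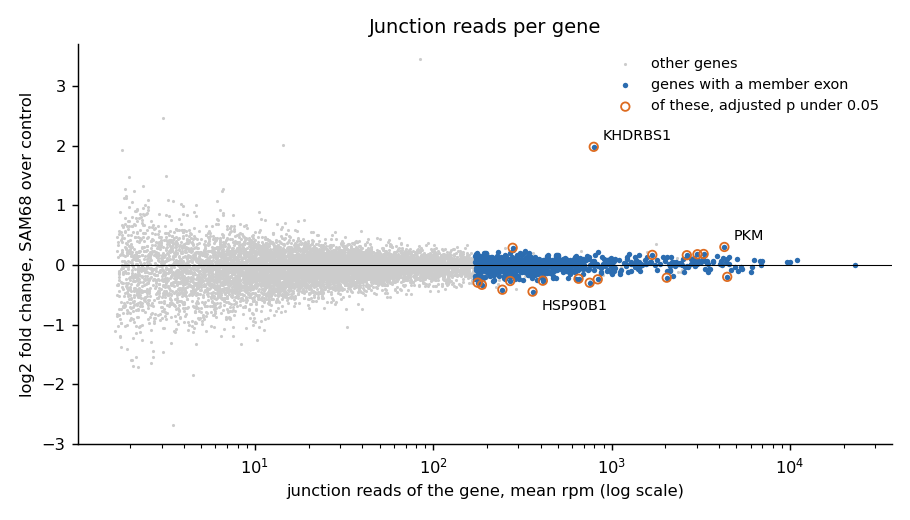
Log2 fold change of junction reads per gene, SAM68 over control (y), against the mean level (x, rpm, log scale) for 10119 genes. Genes with a member exon (blue) start at 171 rpm and lie near 0 except KHDRBS1 at 1.98, and circles mark the 18 with an adjusted p under 0.05 (limma).

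Besides KHDRBS1, the higher genes were PKM, BUD31, RPL9, RPL19, PSMB1 and ENO1. PKM had 3715, 3946 and 3847 rpm in control and 4902, 4584 and 4696 rpm in SAM68 (log2 fold change 0.30, standard error 0.0351, adjusted p = 1.87e-05, limma). The glycolytic enolase ENO1 had 2485, 2467 and 2511 rpm against 2790, 2797 and 2771 rpm, a log2 fold change of 0.16 (adjusted p = 0.0249, limma). Both were higher in all SAM68 libraries than in any control library.

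The lowest was HSP90B1, the HSP90 chaperone of the endoplasmic reticulum, with 436, 415 and 395 rpm in control and 282, 337 and 296 rpm in SAM68. It changed by -0.45 on the log2 scale (standard error 0.0634, adjusted p = 0.000382, limma), and it stayed past the threshold on the median of ratios scale and with each library left out (adjusted p of at most 0.0351), but not with summed events (adjusted p = 0.0742). The snoRNA host gene C6orf48 followed with -0.41 (adjusted p = 0.00338, limma), then RAB1A with -0.33, HMGA2 with -0.30 and BUB3 with -0.30. HMGA2 encodes a chromatin protein, BUB3 a spindle checkpoint protein and RAB1A a GTPase of early secretion. HNRNPA1 differed by -0.01 (2607, 2674 and 2647 rpm in control and 2500, 2583 and 2793 rpm in SAM68, adjusted p = 0.939, limma). Of the 756 genes, 716 (94.7%) were within 0.2 on the log2 scale, against 65.9% of all tested genes.

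Reads that retain the introns beside the exons are a readout the rule did not use. The spliced reads of the same introns can be among the inclusion reads of the members. The retained intron (RI) table held 180 events in introns that join a member exon to its flanking exon, beside 163 exons, and 175 of them had at least 10 mean reads. Past an adjusted p of 0.05 and 10 points, 0 of the 175 were called, against 1 of 2591 RI events (0.0386%). An unadjusted p under 0.05 was found in 13 (7.43%), against 6.45% of all tested RI events. The median retained share was 0.147% in control and 0.151% in SAM68, and 1.34% and 1.16% in the other RI events, which had a median of 92.3 reads against 1544.

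Without the limit of 10 points, 1 of these RI events passed, against 5 of the 2591 (0.193%). The intron of RPS21, a small-subunit ribosomal protein, was retained at 3.59%, 4.22% and 3.87% in control and at 2.88%, 2.53% and 2.28% in SAM68. The groups did not overlap, and the mean went from 3.89% ± 0.319 to 2.56% ± 0.302 (SD, n = 3, adjusted p = 0.0240, quasi-binomial test with limma moderation, and 0.860 with its own spread). An intron of HNRNPL, a splicing repressor that regulates its own mRNA, was retained at 19.9%, 21.2% and 21.99% in control and 24.7%, 21.4% and 26.4% in SAM68 (adjusted p = 0.362), and one of PABPC1, the poly(A)-binding protein, at 84.3%, 84.3% and 85.5% and 86.9%, 89.7% and 87.0% (adjusted p = 0.728). The libraries of the groups overlapped in HNRNPL and not in PABPC1. Both were chosen for the size of their difference after the values were seen, and the event with the largest one, an intron of EIF4A1, rested on 1 to 3 retained reads per library.

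Alternative splice sites at the ends of the exons were a further readout, in which a form can likewise share inclusion reads with the members. Alternative 3′ splice site (A3SS) and 5′ splice site (A5SS) events with at least 10 mean reads were taken. In 34 A3SS and 63 A5SS events at member exons a form uses the skipping junction of a member event, so that they repeat reads the rule used, and these were left out of the comparison. At both limits 0 of the other 133 A3SS events were called, against 1 of 4553 (0.022%), and 0 of the other 118 A5SS events, against 4 of 3010 (0.133%). An unadjusted p under 0.05 was found in 8 A3SS events (6.02%), against 5.45% of all, and in 8 A5SS events (6.78%), against 5.95% of all. The median difference in the share of the longer form was -0.0375 points in A3SS and 0.0078 points in A5SS.

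Past the adjusted p alone there were 2 A3SS events, against 4 of all (0.0879%), and 1 A5SS event, against 7 of all (0.233%). Both A3SS events were in EIF4A1, the RNA helicase of translation initiation. In the event with sites 2 nt apart, the longer form had 95.8%, 99.2% and 99.98% in control and 95.5%, 94.9% and 95.7% in SAM68 (adjusted p = 1.17e-16, quasi-binomial test with limma moderation). The groups did not overlap, by a narrow margin in control library 1, and the shorter form had 173, 35 and 1 reads in control against 240, 218 and 196 in SAM68. In the event with sites 6 nt apart, the longer form rose from 98.74% ± 0.153 to 99.46% ± 0.254 (SD, n = 3, adjusted p = 0.00646, quasi-binomial test with limma moderation), without overlap. With its own spread, the adjusted p of either event was 0.803. The A5SS event was in RPL21, where the shorter form had 71 reads in control library 2 and none in the others (adjusted p = 1.39e-07, quasi-binomial test with limma moderation), and without that library the difference was 0. The skipping reads of RPL4 and of exon 3 of RPS16 come from the same library. Whether that library differs in more than these reads was not tested.

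The values at the thresholds are given once. Just inside the PSI limit lay events of SNHG5 (99.5004%), EIF3I (99.5018%) and ANP32A (99.5044%), and just outside it events of ASNA1 (99.4965%), NPC2 (99.4961%) and NAP1L1 (99.4941%). Just inside the limit of reads lay MORF4L1 (1000.5 mean reads), ATP1B3 (1001.0) and ACOT13 (1001.5), and just outside it JADE2 (999.8), USP22 (998.8) and ST13 (998.7).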

How the data were processed

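RNA from 3 control and 3 SAM68 libraries was sequenced by the authors in paired-end mode (Illumina NovaSeq). They filtered the reads, trimmed their start, aligned them to GRCh38 and listed events with rMATS, whose version is not given in the sources used here. The submitters' processing notes name CASAVA 1.4, fastp 0.20.0 and HISAT2 2.1.0. The deposited tables hold raw junction read counts per form as lists of 3 values per group. The list given first was taken as control because the study's panel of PKM levels names those libraries so. The deposited columns of p-value, FDR and inclusion difference hold the authors' own comparison and were not used, nor was the table of mutually exclusive exons.

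The members, gene lists and comparisons were chosen with earlier results of these data known. In the A3SS table, 162 events whose lists a spreadsheet had regrouped were recovered and 113 were left out. PSI was computed per library from counts per effective length. The quasi-binomial dispersion was moderated with squeezeVar of limma 3.58.1 (R 4.3.3), over SE, A3SS, A5SS and RI events with at least 10 mean reads, each adjusted within its type. Gene levels were tested with limma (eBayes with trend) on log2(rpm + 0.5). The tests were checked on simulated counts. Exons, introns and coding parts came from GENCODE 44, in which 755 of 756 gene identifiers were found, and sequences from GRCh38. Splice site scores sum log2 odds over the last 20 nt of the intron and 3 nt of the exon, or 3 nt of the exon and 6 nt of the intron. Wilson intervals (95%) and floors of 3 reads take in counting error alone, as the reads have no molecular identifiers.

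Named were the 10 deepest exons (1 per gene), the 5 largest falls and rises, the events past the test, the 3 on each side of the thresholds, the deepest exon of each list, called genes, and KHDRBS1, PKM and HNRNPA1. Further names were picked after seeing the values. Alternatives were other limits of the rule, other dispersions, limma on the logit of PSI, other read minimums, pseudocounts and scales, and leaving out each library.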

Additional observations from a re-analysis of the deposited data

How the results depend on the processing

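No paired analysis was possible because the lists print no replicate numbers, so that a control library cannot be matched to a SAM68 library. The number of member events was 3883 with a minimum of 500 mean reads and 860 with a minimum of 2000, stayed between 1592 and 2051 under the other limits and without length normalisation, and was 1854 to 1916 with each library left out. The difference in summed skipping share, SAM68 minus control, was 0.00264 points without length normalisation, and 0.00362 to 0.00633 points with each library left out. As a median over exons it was 0 points. That median is 0 in every library, as at most 40.9% of exons had a skipping read in any of them, so it could show no difference. The count of member events past the inclusion test was 2 with dispersions that follow a trend on reads (PKM and RPL4), 0 with unmoderated dispersions and 0 when limma was run on logit-transformed PSI, settings that called 1 and 3 of all 47450 events, and 3 to 4 with each library left out. With each library left out PKM passed, while ITGB1 was gained without SAM68 library 1 or 3, and RACK1 without SAM68 library 3. Splice site events called at member exons numbered 0 to 2 with each library left out, those of RBM42 without control library 1 or 2 or SAM68 library 2, and that of RNASEK-C17orf49 without SAM68 library 1. The called gene (KHDRBS1) and the absence of called RI events were kept under every alternative run. Depth limits what can be seen in single exons, since the median exon had 4 skipping reads over all libraries and 417 of 1681 had none in control. The causes of these changes were not tested.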
